A study of Mus musculus with 5 samples.

Results

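Among CD3+ cells sorted from the mouse brain after stroke, T cells below both coreceptor gates are the cells that score as T cells but whose transcripts of neither coreceptor, Cd4 or Cd8, lie above a gate. They were chosen by their measured values: the mean score of Cd3e, Cd3d, Cd3g, Cd2, Lck, Cd247 and Thy1 was above 0, Cd4 was at or below 0, and the mean of Cd8a and Cd8b1 was at or below 0. Of 692 cells, 345 passed the T cell marker rule and 93 of these lay below both gates, against 93 CD4-only cells, 108 CD8-only cells and 51 cells above both gates. The 93 cells came from every sample, with 15 and 28 in untrained samples 1 and 2 and 7, 17 and 26 in trained samples 1, 2 and 3.

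The study induced a photothrombotic stroke, an infarct of the cortex made by light and a photosensitive dye, in wildtype C57BL/6 mice. Trained mice had access to running wheels from day 2, untrained mice had none, and at day 14 the hemisphere on the side of the stroke was taken in both groups. After a 37% Percoll step and antibody staining of CD45 and CD3, single cells were sorted into 384-well plates and read by SORT-seq, a 3′-end method in which each well carries its own barcode. There were 2 untrained and 3 trained samples, and nothing in the labels says that they were separate animals. A p-value here thus rests on 5 samples that may share a source. The tests between T cell classes take sample as a block, so their p does not measure the spread between samples. Both groups carried the stroke, so no cell here came from an uninjured brain, and the labels give neither age nor sex.

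A mature αβ T cell usually carries either CD4, which binds class II antigen-presenting molecules, or CD8, which binds class I, and the coreceptor brings the kinase Lck to the T cell receptor. T cells with neither coreceptor form a known minority that includes γδ T cells, natural killer T cells and αβ cells called double negative, and such cells have been described in injured brain. In single-cell RNA data the same gate also admits CD4 or CD8 T cells whose coreceptor transcript was not captured. A score at or below 0 does not show that a transcript is missing, so these cells are described by the gate alone.

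The deposited values are scores between -2.12 and 3.74 and not counts, so depth is unknown and a difference between classes is a difference in score, with no fold. Untrained sample 2 stood apart: its SD between cells, as a median of all genes, was 0.728, against 0.37 in untrained sample 1 and 0.478, 0.515 and 0.429 in the trained samples. In that sample 1607 genes had a mean of 0 over all its cells, within 1e-06, against 0 genes in each of the other 4 samples. Well names recurred, as 221 of 331 names occurred in more than 1 sample, and a name marks a plate position; the 93 T cells below both gates held 87 names, 6 of them in more than 1 sample. Results that rest on untrained sample 2 are also given without it.

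The T cell label was checked with markers that the rule had not used. Against the 237 other cells below both gates, 9 of 11 further T cell markers were higher in 5 of 5 samples (81.8%), where 54.5% of all 2916 genes outside the gates were. The median difference was 0.333 for the 11 markers and 0.182 for all genes. The other cells had been set apart by a low T cell marker score and scored lower for genes in general. This comparison was not made with each cell's mean subtracted, so it does not separate a T cell trait from that general shift. Ptprcap, which encodes a partner of the CD45 phosphatase, scored 0.427 in the T cells below both gates and -0.354 in the other cells, and the adaptor gene Lat scored 0.161 and -0.302. Cd5 and Cd6, receptors that dampen T cell receptor signals, were higher in 4 of 5 samples each. Against the gated T cells the same markers were mostly lower. Below both gates 10 of 11 were lower than in CD4-only cells (median -0.25, all genes -0.0559) and 9 of 11 than in CD8-only cells (median -0.157, all genes -0.0423). With each cell's mean subtracted 9 and 7 of the 11 were lower, with medians of -0.192 and -0.109.

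The genes of the rule are described with no test, since they chose the cells. Among the 93 cells 58 had Cd3e above 0, 63 had Cd3d, 60 had Lck and 74 had Thy1, so single cells passed on different markers. The median T cell marker score was 0.317, with a range from 0.00423 to 1.22, and the medians were 0.354 in CD4-only and 0.379 in CD8-only cells. Cd4 had a mean over cells of -0.341 here, against -0.342 in CD8-only cells, and the mean of Cd8a and Cd8b1 was -0.309, against -0.313 in CD4-only cells. For each coreceptor the mean lay close to that of the class gated on the other one. Both classes were held at or below 0 for that coreceptor by the rule, so the likeness follows in part from the selection. Close to the gates, the 5 nearest cells inside scored between -0.0401 and -0.00779 for Cd4 and the 5 nearest outside between 0.0119 and 0.0291. For the CD8 genes these ranges were -0.0637 to -0.0219 inside and 0.00598 to 0.0586 outside, and for the T cell marker score 0.00423 to 0.0177 inside and -0.0223 to -0.00405 outside. Within 0.1 of a gate lay 20 of the 93 cells for the T cell markers, 15 for Cd4 and 14 for the CD8 genes. The highest Cd4 score of a T cell below both gates was -0.227 in untrained sample 2 and between -0.0451 and -0.00779 in the other 4 samples.

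**Figure D1:**
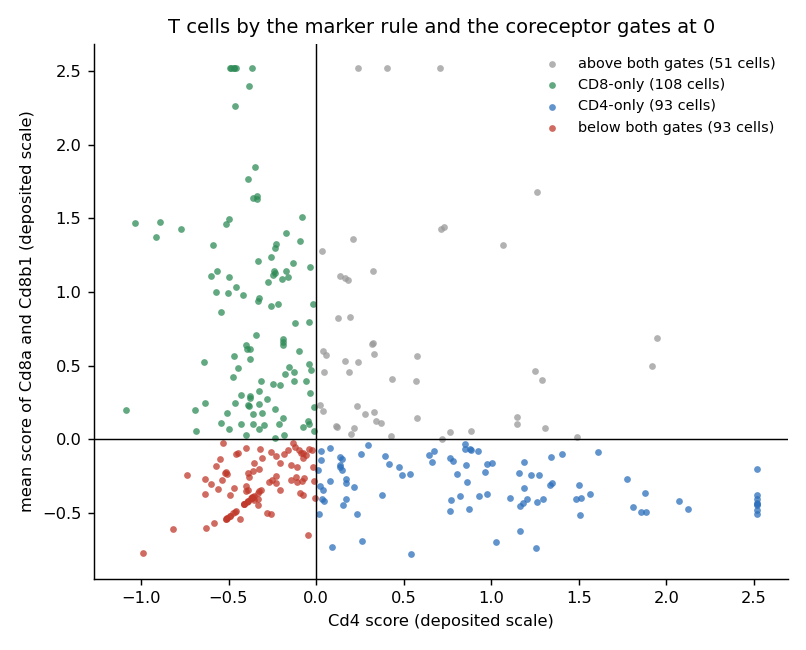
Each point is 1 of the 345 T cells, with its Cd4 score on the horizontal axis and the mean score of Cd8a and Cd8b1 on the vertical axis, both on the deposited scale, and the black lines mark the gates at 0. The 93 T cells below both gates fill the lower left field, and cells lie close to both gates on either side (nearest Cd4 scores -0.00779 and 0.0119).

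The cells also differed from the gated classes in measures that touch every gene, given here over the pooled cells and with no test. The mean score over all 2926 mouse genes was 0.0528 per cell, against 0.103 in CD4-only and 0.0906 in CD8-only cells. Its sample means ran from 0.00526 to 0.0856, against 0.0684 to 0.169 and 0.0691 to 0.113. The mean of the 41 spike-in RNAs, which are added in equal amount to every well, was 0.0438, against -0.0124 and -0.0147. Trained sample 1 went the other way against CD4-only cells (0.0466 against 0.0561). Kcnq1ot1 and A630089N07Rik, both noncoding transcripts, had a joint score above 0 in 16 of the 93 cells, 7 of 93 CD4-only and 10 of 108 CD8-only cells. The part of these shifts in the results below was not tested, and the differences are also given after subtraction of each cell's own mean over all genes.

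Compared with CD4-only T cells of the same samples, T cells below both gates scored higher for genes of the cytotoxic programme and lower for Ly6a, Nrp1, Cd28 and other genes. Of 2916 genes tested, 5 were higher, which is 0.171%, and 18 were lower, or 0.617% (limma on class means with sample as a block, Benjamini-Hochberg adjusted p under 0.05). After subtraction of each cell's mean the split was 5 higher and 1 lower. In 5 of 5 samples 56 genes were higher (1.92%) and 439 lower (15.1%). With no overlap between the sample means of the classes 12 were higher (0.412%) and 115 lower (3.94%). In the sentences that follow, values per sample are in the order untrained 1, untrained 2, trained 1, trained 2 and trained 3. Differences between classes carry limma's moderated standard error from the fit of the 15 class means. The 3 classes and their 5 samples share 1 estimate of the spread per gene there, so it is not the spread of 5 within-sample differences. Training and interaction differences carry the standard error of their own fits.

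Nkg7 encodes a granule membrane protein of cytotoxic T and natural killer cells. In T cells below both gates its mean scores were 0.081, 0.946, 0.959, 0.674 and 0.422, and in CD4-only cells 0.109, 0.17, 0.0609, 0.235 and 0.0502. Untrained sample 1 was the one sample in which it was not higher, and there both classes lay near 0.1. The difference was 0.491 ± 0.105 (limma adjusted p = 0.0253, higher in 4 of 5 samples). Klrd1 and Klrk1 encode lectin-like receptors of natural killer cells and cytotoxic T cells, and lie on chromosome 6 with no protein-coding gene between them. Klrd1 scored -0.0268, 0.543, 0.361, 0.542 and 0.34 below both gates and -0.0116, -0.339, 0.0331, -0.152 and -0.102 in CD4-only cells. It differed by 0.466 ± 0.096 (limma adjusted p = 0.0234) and was higher in 4 of 5 samples, again all but untrained sample 1. Klrk1 scored 0.151, 0.337, -0.0807, 0.2 and 0.242 below both gates and -0.183, -0.408, -0.298, -0.168 and -0.287 in CD4-only cells. It was higher in 5 of 5 samples, by 0.438 ± 0.0903 (limma adjusted p = 0.0234).

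Cd7 encodes an immunoglobulin-family surface protein of T and natural killer cells. Its scores were 0.0787, 0.587, 0.0858, 0.41 and 0.336 below both gates and -0.0622, -0.248, -0.308, -0.199 and -0.171 in CD4-only cells, so the classes did not overlap. The difference was 0.497 ± 0.0903 (limma adjusted p = 0.0234). Ly6c2, whose product is carried by memory CD8 T cells and by monocytes, scored 0.0438, 0.605, 0.485, 0.339 and 0.219 against -0.0252, -0.132, -0.462, 0.000738 and -0.0544. It was higher in 5 of 5 samples, by 0.473 ± 0.0967 (limma adjusted p = 0.0234), and untrained sample 1 showed the smallest gap. Without untrained sample 2 the differences were 0.413 for Cd7, 0.407 for Ly6c2, 0.42 for Nkg7, 0.362 for Klrd1 and 0.362 for Klrk1. Their limma adjusted p values were then between 0.0728 and 0.101.

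Ly6a, which encodes the surface antigen Sca-1 and is induced by interferon, had the largest difference of the 23 genes. It scored -0.347, 0.0672, -0.172, 0.212 and -0.0488 below both gates and 0.197, 1.68, 0.491, 0.515 and 0.879 in CD4-only cells, and was lower in 5 of 5 samples. The difference was -0.81 ± 0.128 (limma adjusted p = 0.0119), and without untrained sample 2 it was -0.61 (limma adjusted p = 0.0115). Ly6a and Ly6c2 are neighbours on chromosome 15 with only Ly6c1 between them, and lay on opposite sides of the CD4-only cells. Nrp1, a semaphorin coreceptor carried by many thymus-derived regulatory T cells, scored -0.0905, -0.321, -0.215, -0.299 and -0.194 below both gates and 0.132, 0.317, 0.182, 0.0742 and 0.0777 in CD4-only cells. The classes did not overlap, and the difference was -0.38 ± 0.078 (limma adjusted p = 0.0234). Cd28, the costimulatory receptor, scored 0.00784, 0.164, 0.00885, 0.0692 and 0.04 against 0.2, 0.573, 0.373, 0.379 and 0.414. It too did not overlap and differed by -0.33 ± 0.068 (limma adjusted p = 0.0234). Without untrained sample 2, Nrp1 differed by -0.316 and Cd28 by -0.31, both at a limma adjusted p of 0.0728.

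**Figure D2:**
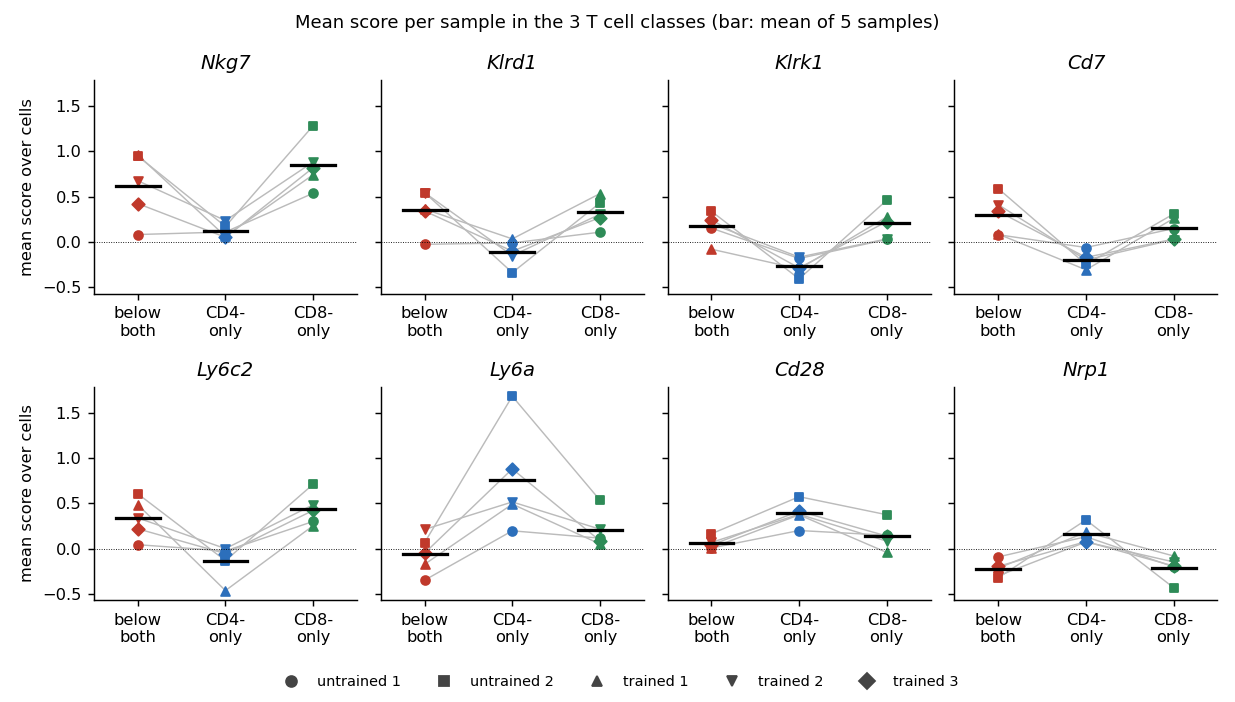
Each panel shows 1 gene, with the 3 T cell classes on the horizontal axis and the mean deposited score over the cells of a sample on the vertical axis; symbols mark the 5 samples, grey lines join the classes of a sample, and black bars are means of 5 samples. The mean of Klrd1 is 0.352 below both gates, 0.328 in CD8-only and -0.114 in CD4-only cells, that of Nkg7 is 0.616, 0.851 and 0.125, and that of Nrp1 is -0.224, -0.209 and 0.156.

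The other 15 genes that were lower than in CD4-only cells were lower in 5 of 5 samples each. Of the T cell receptor pathway, Fyn, a kinase that acts beside Lck, differed by -0.339 ± 0.0793. Apbb1ip, the adaptor that links Rap signals to integrins, differed by -0.356 ± 0.0712, and its scores below both gates ran from -0.101 to 0.161, against 0.194 to 0.47. Of the cytoskeleton and membrane, Actr2 of the Arp2/3 actin complex differed by -0.403 ± 0.082 and S100a10, the partner of annexin A2, by -0.396 ± 0.0827. Kcnn4, a calcium-activated potassium channel of activated T cells, differed by -0.33 ± 0.0726 and the semaphorin gene Sema4d by -0.319 ± 0.0668. Of RNA processing, Hnrpll, which directs Cd45 splicing, differed by -0.344 ± 0.0723, Sf3b4 by -0.345 ± 0.08, Pabpn1 by -0.303 ± 0.0635 and Ddx24 by -0.357 ± 0.079. Mbd2, a reader of methylated DNA, differed by -0.351 ± 0.0682. Fryl, Rfk, Pbxip1 and Zfp706 differed by -0.405, -0.364, -0.334 and -0.3. After subtraction of each cell's mean none of these 15 passed (limma adjusted p from 0.0872 to 0.129), nor did Nrp1 or Cd28. Ly6a and the 5 higher genes still did.

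The number of calls against CD4-only cells was smaller without any 1 of the samples. Leaving out untrained sample 1 gave 5 genes, all 5 among the 23, and leaving out untrained sample 2 gave 1, Ly6a. Without trained sample 1 there were 5, with 3 among the 23, and without trained sample 2 there were 5, with 2 among the 23. Without trained sample 3 there were 0 (limma, with 363 at an unadjusted p under 0.05). When untrained sample 2, trained sample 2 or trained sample 3 was left out, 0 genes passed as higher. Without the cells whose macrophage and microglia markers averaged above 0 (27 of the 93, and 32 of 93 CD4-only) 0 genes passed in limma and 507 had an unadjusted p under 0.05, with Ly6a at -0.822 (adjusted p = 0.0552) and Nkg7 at 0.5. Ly6c2, 1 of the 23 genes, is among those markers, so this setting also selected cells on a tested gene. All 23 genes kept their direction in all of the alternatives in which they could be tested. They were chosen by their p and the alternatives draw on the same cells, so a kept direction was likely beforehand and adds no support. At an unadjusted p under 0.05, 57 genes were higher and 476 lower.

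Gene lists were read against all genes tested, for which the median difference from CD4-only cells was -0.0559 and 69.3% of genes were lower. Of 12 cytotoxic effector genes 10 were higher, 3 of them past the threshold (Nkg7, Klrd1, Klrk1), and the median was 0.27. Ccl5, a chemokine of cytotoxic cells, scored 0.267, 0.813, 0.425, 0.938 and 0.627 below both gates and 0.197, -0.241, 0.297, 0.387 and 0.0817 in CD4-only cells, with a difference of 0.47 ± 0.148 that did not pass (limma adjusted p = 0.111). The cathepsin gene Ctsw differed by 0.385 ± 0.0954 (limma adjusted p = 0.0558) and the chemokine gene Xcl1 by 0.411 ± 0.121 (limma adjusted p = 0.0998), each higher in 5 of 5 samples. The transcription factor genes Eomes and Tbx21 differed by 0.128 and 0.018, and Srgn and Lamp1, which encode granule and lysosome proteins found in many cells, by -0.273 and -0.164. Without untrained sample 2 the list's median was 0.187, with 9 of 12 higher. With medians over cells it was 0.062, also with 9 of 12 higher, and there Klrk1 differed by 0.139, Klrd1 by 0.195, Cd7 by 0.15 and Nkg7 by 0.565, none past the threshold (limma adjusted p from 0.302 to 0.337).

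Of 59 interferon-stimulated genes 58 were lower than in CD4-only cells, with 1 past the threshold, Ly6a, and a median of -0.194. After each cell's mean was subtracted, 53 were lower with a median of -0.136, and without untrained sample 2 the median was -0.139. The guanylate-binding protein gene Gbp4 scored -0.145, 0.0159, -0.126, -0.193 and -0.0214 below both gates and 9.64e-05, 0.649, -0.0202, 0.102 and 0.461 in CD4-only cells, and trained sample 1 and untrained sample 1 showed small gaps. It did not pass (difference -0.332 ± 0.0958, limma adjusted p = 0.0932). The class I antigen presentation list had 13 of 17 genes lower, none past the threshold, and a median of -0.159, or -0.101 with each cell's mean subtracted. Its heavy chain genes H2-K1 and H2-D1 differed by -0.416 ± 0.1 and -0.334 ± 0.0808 (both limma adjusted p = 0.0539).

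Of 9 helper and regulatory genes 7 were lower, with Nrp1 past the threshold and a median of -0.217. Among them Maf differed by -0.318 ± 0.106, Gata3 by -0.263 ± 0.0812 and Capg by -0.274 ± 0.0729, with limma adjusted p of 0.135, 0.108 and 0.0747. Of 26 genes of T cell receptor signalling outside the gates 20 were lower, with Cd28 and Fyn past the threshold and a median of -0.117. Lat scored 0.156, 0.166, 0.104, 0.427 and -0.0473 against 0.415, 1.27, 0.218, 0.525 and 0.383, lower in 5 of 5 samples by -0.4 ± 0.107 (limma adjusted p = 0.0747). Actin cytoskeleton genes were lower in 29 of 33, with Actr2 past the threshold (median -0.15), and immediate-early and stress genes in 25 of 30, with 0 past it (median -0.134). Of 15 effector memory genes 10 were lower with a median of -0.165, and here 1 gene passed in each direction, Ly6c2 higher and S100a10 lower. With each cell's mean subtracted the medians were nearer to 0: -0.0584 for T cell receptor signalling (16 of 26 lower), -0.0918 for actin genes (25 of 33), -0.0759 for immediate-early and stress genes (20 of 30) and -0.107 for effector memory genes (9 of 15). The median of all genes was then 0.0023. Cd44, the hyaluronan receptor of memory cells, differed by -0.332 ± 0.0873 (limma adjusted p = 0.0721).

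Cytosolic ribosomal protein genes were higher in 55 of 71, with 0 past the threshold and a median of 0.0709. This median was 0.129 with each cell's mean subtracted and 0.0481 without untrained sample 2. It was -0.000314 for the 69 of the 93 cells with both gate scores at or below -0.1, with 35 genes higher and 36 lower, so the list had no direction there, and with gates at 0.25 it was 0.102, with 56 of 71 higher. The naive and recirculation list had 6 of 12 genes lower (median -0.0666), the Gimap family of lymphocyte survival GTPases 5 of 8 (median -0.0572) and cell cycle genes 7 of 10 (median -0.0516), all with 0 past the threshold and close to the median of all genes. Mitochondrially encoded genes were lower in 7 of 14, with a median of -0.00722. The other lists with 0 genes past the threshold were tissue residency (10 of 12 lower, median -0.0892), chemokine receptors and adhesion (11 of 18, -0.12), cytokine receptors (7 of 14, -0.000567), nuclear oxidative phosphorylation (41 of 70, -0.0277), apoptosis and survival (7 of 12, -0.0957) and low-expressed noncoding transcripts (2 of 7, 0.0597). Splicing factors and hnRNPs were lower in 35 of 45, with Sf3b4 past the threshold and a median of -0.0796. With each cell's mean subtracted 27 of the 45 were lower, with a median of -0.0214.

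**Figure D3:**
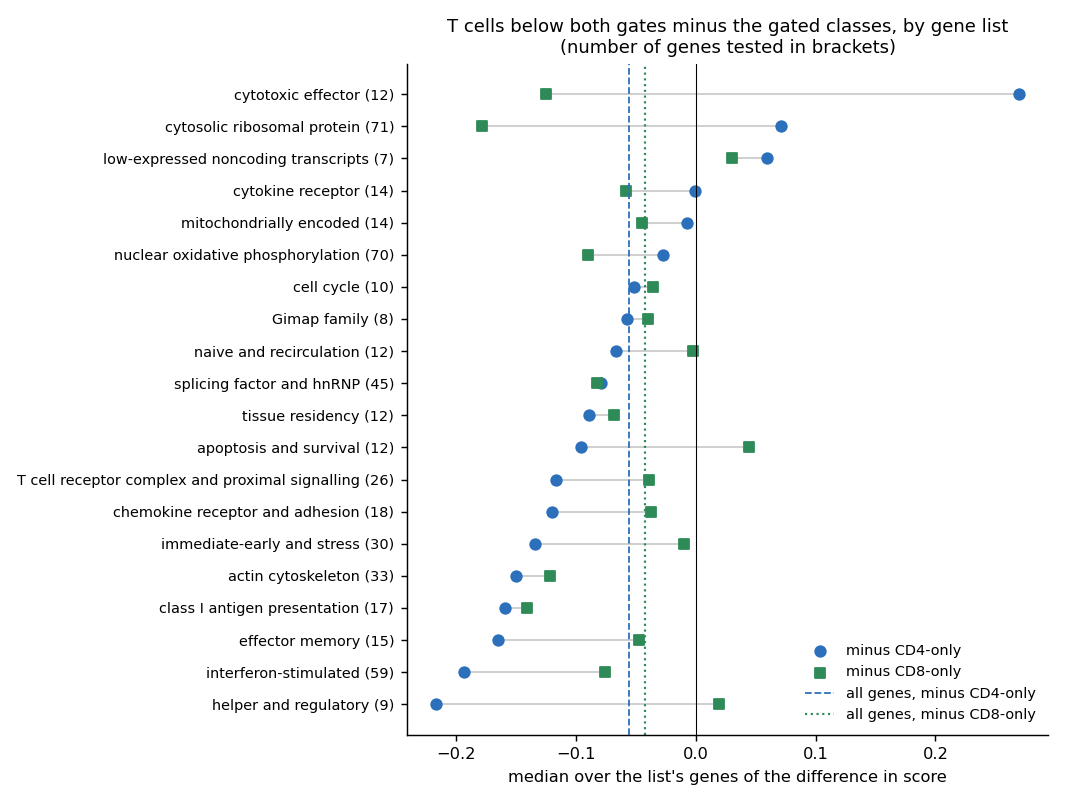
For each gene list the horizontal axis gives the median over its genes of the difference in mean score, T cells below both gates minus CD4-only (circles) or minus CD8-only cells (squares), and the dashed and dotted lines give the medians of all 2916 genes (-0.0559 and -0.0423). The cytotoxic list lies at 0.27 and -0.125, on both sides of 0, and the helper and regulatory list at -0.217 and 0.0192.

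Against CD8-only T cells no gene passed. Of 2916 genes 0 were higher (0.0%) and 0 lower (0.0%) by limma with Benjamini-Hochberg adjustment, while 24 were higher and 302 lower at an unadjusted p under 0.05. In 5 of 5 samples 35 genes were higher, or 1.2%, and 291 lower, or 9.98%. The gene with the smallest p was Rps19 of the small ribosomal subunit, which scored 0.0306, 0.535, 0.0702, 0.26 and 0.371 below both gates and 0.641, 1.13, 0.525, 0.475 and 0.59 in CD8-only cells. It was lower in 5 of 5 samples, by -0.42 ± 0.0757 (limma adjusted p = 0.0633). Rps9 and Rpl17, also ribosomal, differed by -0.408 ± 0.0889 and -0.47 ± 0.104, the sialomucin gene Cd164 by -0.364 ± 0.0769 and the purine salvage gene Hprt by -0.314 ± 0.0673, all at a limma adjusted p of 0.0912 and lower in 5 of 5 samples. With both gate scores at or below -0.1, an alternative chosen after the data were seen, 5 genes passed as lower: Rps19, Rps9, Hprt, Mbd2 and Psme2. Without cells positive for macrophage and microglia markers Rps19 alone passed.

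The 5 genes higher than in CD4-only cells did not pass against CD8-only cells, and the intervals give the differences that these data allow. Klrd1 scored 0.107, 0.429, 0.532, 0.305 and 0.267 in CD8-only cells, and the difference was 0.0237 ± 0.096 with a 95% interval from -0.177 to 0.224. Klrk1 scored 0.0266, 0.46, 0.275, 0.0323 and 0.224 there, and its interval ran from -0.222 to 0.155. Cd7 scored 0.147, 0.308, 0.258, 0.025 and 0.0305 in CD8-only cells and differed by 0.146 ± 0.0903 (interval -0.0428 to 0.334, limma adjusted p = 0.57). For Ly6c2 the interval was -0.297 to 0.106. By its mean over 5 samples Nkg7 lay between the classes, at 0.616 against 0.125 in CD4-only and 0.851 in CD8-only cells. In untrained sample 1 it was below both classes (0.081 against 0.109 and 0.536) and in trained sample 1 above both (0.959 against 0.0609 and 0.74). It scored 0.536, 1.28, 0.74, 0.88 and 0.817 in CD8-only cells, and the T cells below both gates were lower in 4 of 5 samples (difference -0.234 ± 0.105, interval -0.453 to -0.0154, limma adjusted p = 0.43). Ccl5 scored 0.576, 1.74, 0.804, 1.06 and 0.874 in CD8-only cells and was lower below both gates in 5 of 5 samples (difference -0.395 ± 0.148, limma adjusted p = 0.318). Ly6a was also lower in 5 of 5 samples, by -0.259 ± 0.128 (limma adjusted p = 0.448), and Nrp1 differed by -0.0144 ± 0.078.

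By lists, the median over all genes against CD8-only cells was -0.0423, with 67.8% lower. Ribosomal protein genes were lower in 69 of 71, with 0 past the threshold, 35 lower at an unadjusted p under 0.05 and a median of -0.179. That median was -0.132 with each cell's mean subtracted and -0.147 without untrained sample 2. The mean score of the list was 0.126, 0.5004, 0.379, 0.473 and 0.346 below both gates and 0.492, 0.889, 0.424, 0.464 and 0.509 in CD8-only cells, so trained sample 2 went the other way. Cytotoxic effector genes were lower in 11 of 12 (median -0.125), with each cell's mean subtracted in 8 of 12 (median -0.0771). Class I antigen presentation genes were lower in 14 of 17 (median -0.141, or -0.093 with each cell's mean subtracted) and actin genes in 28 of 33 (median -0.122, or -0.074). Interferon-stimulated genes were lower in 49 of 59 (median -0.0758), and in 33 of 59 with each cell's mean subtracted. Helper and regulatory genes were lower in 3 of 9 (median 0.0192). Psme2, a proteasome activator gene of the class I list, differed by -0.36 ± 0.0809 (limma adjusted p = 0.0957), and Ptprcap by -0.398 ± 0.0956 (limma adjusted p = 0.114).

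Markers of other cell types that a CD3 gate could hold were read in the same cells. Of the γδ T cell list 1 of 29 genes was measured, Maf, which scored -0.0531, -0.391, 0.0866, 0.0246 and -0.0208, and the receptor chain genes of γδ and αβ T cells, Trdc and Trac among them, were not analysed here. The 6 measured natural killer T and MAIT cell genes had a median difference of 0.104 from CD4-only cells and -0.0111 from CD8-only cells, with 0 past the threshold. Of 9 measured natural killer and innate lymphoid genes 2 passed against CD4-only cells, Klrd1 and Klrk1, which are also on the cytotoxic list. Their mean score was 0.0236, 0.165, 0.0449, 0.165 and 0.0981 below both gates, and 0.0338, 0.152, 0.156, 0.0637 and 0.122 in CD8-only cells. Fcer1g and Tyrobp, signalling adaptors of natural killer and myeloid cells, differed from CD4-only cells by 0.211 ± 0.0792 and 0.0652 ± 0.077 (limma adjusted p = 0.17 and 0.71). Fcer1g was above 0 in 36 of the 93 cells, 17 of 93 CD4-only and 32 of 108 CD8-only cells.

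Of 9 macrophage, monocyte and dendritic cell markers 1 passed against CD4-only cells, Ly6c2, which memory CD8 T cells carry as well. The mean of this list was 0.0605, -0.295, -0.0841, -0.0403 and 0.0182 below both gates and 0.0393, -0.39, -0.0868, -0.128 and 0.043 in CD4-only cells. The list was above 0 in 28 of 93, 30 of 93 and 35 of 108 cells of the classes below both gates, CD4-only and CD8-only. Cst3, a protease inhibitor gene that is high in microglia and macrophages, had medians over cells of -0.321, -0.232 and -0.319 in the 3 classes, and the complement gene C1qb -0.222, -0.118 and -0.193. Of the oligodendrocyte markers, Mbp scored 0.322, 0.336, 0.349, 0.356 and 0.221 below both gates and 0.0991, 0.107, 0.136, 0.19 and 0.185 in CD4-only cells (difference 0.173 ± 0.0739, limma adjusted p = 0.223, higher in 5 of 5 samples), and Cnp differed by -0.237 ± 0.117 (limma adjusted p = 0.291). The neutrophil list had 1 measured gene, Cxcr2 (0.045 against CD4-only cells), and the endothelial list 1, Bsg (-0.0213), neither past the threshold. Markers listed for B cells, astrocytes, neurons and red cells were not analysed here. The part of these markers in the results was not tested beyond leaving out the cells positive for macrophage and microglia markers. The score for that step included Ly6c2, Fcer1g and Tyrobp, so it does not single out myeloid content.

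The T cells below both gates differed among themselves. Over the 93 cells, each sample centred, the first principal component held 6.86% of the variance, the second 3.75% and the third 3.13%. Component 1 followed the mean score of all mouse genes in the cell (Pearson r = 0.969 over 93 cells) and ran against the mean of the spike-ins (r = -0.701). These quantities come from the same cells and include the same genes, so r is a description. At its low end stood the noncoding transcripts A630089N07Rik, Gm10785 and Kcnq1ot1, and at its high end Rplp0, Xcl1, Rps3, Eef1a1, Cd7, Gimap3 and Nkg7. Its r was 0.472 with the T cell marker score of the rule, -0.0726 with Cd4 and -0.0938 with the CD8 genes. Component 2 set ribosomal protein genes (r = 0.615) against interferon-stimulated genes (r = -0.528), with Ly6a, Cxcr6, S100a4, S100a6 and Ifit3 at 1 end and Rps20, Rps10 and Rps7 at the other. Its 3 cells below -20 were all from untrained sample 2.

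**Figure D4:**
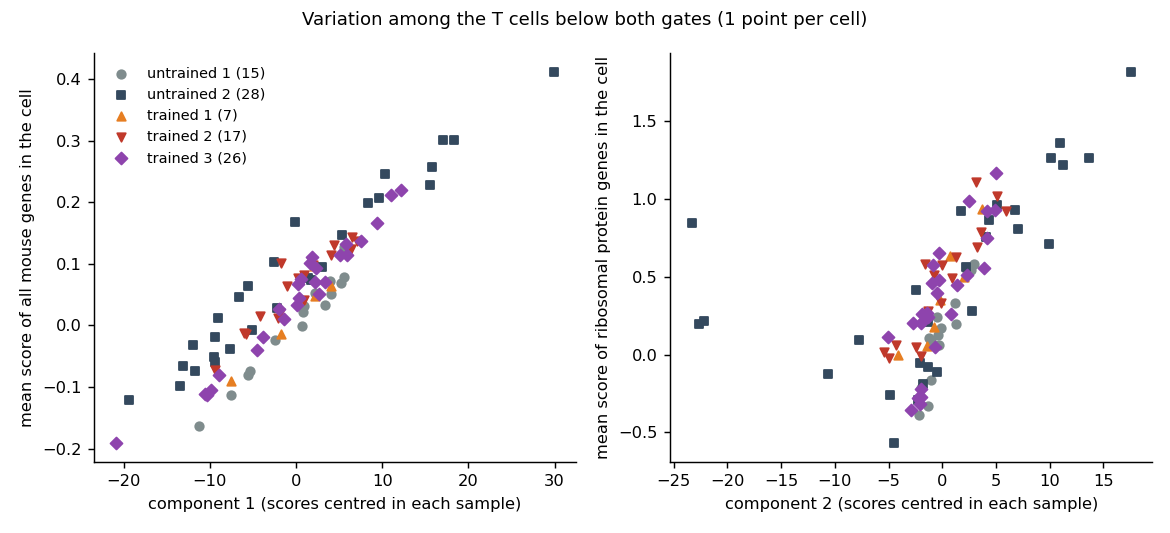
Each point is 1 of the 93 T cells below both gates, marked by sample; the left panel plots component 1 against the mean score of all mouse genes in the cell, and the right panel component 2 against the mean score of ribosomal protein genes, all in units of the deposited score. The components are centred in each sample and the vertical axes are not, while the r of 0.969 for component 1 was taken with both quantities centred. In the right panel 3 cells of untrained sample 2 stand off to the left.

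High scores for cytotoxic genes were found in a part of the cells. Nkg7 was above 0 in 63 of the 93 cells (67.7%), against 54.8% of CD4-only and 88% of CD8-only cells, and above 1 in 28%, 7.53% and 39.8%. By sample the share above 0 was 33.3%, 71.4%, 85.7%, 82.4% and 69.2%, lowest in untrained sample 1. In CD4-only cells it was 52.2%, 44.4%, 63.6%, 64% and 50%, so untrained sample 1 went the other way. The other shares in this paragraph pool the cells of all samples, whose mix of classes and SD between cells differ. Nkg7 and Ccl5 were both above 0 in 48 cells, 1 of them alone in 15 and 14, and neither in 16. In CD4-only cells 34 of 93 and in CD8-only cells 86 of 108 had both. Klrk1 was above 0 in 39.8% of the cells, 9.68% of CD4-only and 41.7% of CD8-only cells, and Cd7 in 44.1%, 15.1% and 38.9%. Ly6a was above 0 in 29%, 71% and 41.7%, and Cd28 in 26.9%, 55.9% and 38.9%. Values above 0 are scores and not detected transcripts.

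The SD between cells of 1 sample was compared with that in the gated classes. For ribosomal protein genes it averaged 0.408 over the 5 samples, against 0.233 in CD4-only and 0.279 in CD8-only cells, and was larger in 5 of 5 samples in both comparisons. For Cd7 it averaged 0.849, 0.361 and 0.676, also larger in 5 of 5 samples in both. For the interferon-stimulated list it was 0.172, against 0.33 and 0.246, smaller in 5 of 5 samples than in CD4-only and in 4 of 5 than in CD8-only cells. The spike-ins also varied more, at 0.194 against 0.122 and 0.178, in 5 of 5 and 3 of 5 samples. Within untrained sample 2 the Cd4 score was lower where the mean of all genes was higher (r = -0.843 over 28 cells), and in the other 4 samples r ran from -0.00968 to 0.477. In CD8-only cells r was -0.711 in untrained sample 2 and ran from -0.585 to 0.106 in the other 4 samples. In CD4-only cells it was -0.197 and ran from -0.363 to 0.419.

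Training was compared first by the share of cells. T cells below both gates made up 19.2% and 40% of the T cells in untrained samples 1 and 2, with 95% Wilson intervals from 12 to 29.3% and from 29.3 to 51.7%. In trained samples 1, 2 and 3 they made up 18.9% (9.48 to 34.2%), 24.3% (15.8 to 35.5%) and 28.9% (20.5 to 39%), and these intervals cover counting error only. The trained values lay within the range of the untrained ones but for sample 1, which was just below. Trained samples averaged 24% ± 4.99 (SD over 3 samples) and untrained ones 29.6% ± 14.7 (SD over 2 samples). The difference was -5.58 points (two-sided exact permutation p = 0.6, adjusted over 4 classes 0.9). With 10 splits the smallest p the design allows is 0.1. Without untrained sample 2 the difference was 4.8 points.

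Of 2916 genes 0 differed between trained and untrained samples in the T cells below both gates (0.0%, limma, Benjamini-Hochberg), and the smallest adjusted p was 0.998. At an unadjusted p under 0.05 there were 43 genes higher and 36 lower in trained samples. The 5 genes with the smallest p are given as values. Gimap7, a GTPase gene of lymphocytes, scored 0.221, 0.436, -0.303, -0.0809 and 0.00964, with both untrained samples above the trained ones and a difference of -0.453 ± 0.125. Cox4i1, a subunit of cytochrome oxidase, scored -0.0802, 0.0502, 0.301, 0.537 and 0.353 and differed by 0.412 ± 0.116. Cnih, a cargo receptor gene, differed by 0.358 ± 0.107. Nono, an RNA-binding protein gene, and Cldn25, a claudin gene, differed by -0.356 ± 0.108 and -0.348 ± 0.112. Genes chosen by the smallest p will tend to separate the groups, and over all 2916 genes 250 were higher (8.57%) and 228 lower (7.82%) in trained samples with no overlap. With medians over cells in place of means 15 of 2916 genes passed in limma, all higher in trained samples. Cox4i1 (difference 0.679, limma adjusted p = 0.000287) and Nkg7 were among them. With means 1455 of all genes were higher in trained samples (median difference -0.000208), and with medians over cells 2188 of 2916 were (median difference 0.0492). Gimap7 then differed by -0.047 (limma adjusted p = 1).

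Genes called against CD4-only cells are given by training as values. Nkg7 averaged 0.685 ± 0.269 (SD over 3 samples) with training and 0.513 ± 0.612 (SD over 2 samples) without it. Ly6a averaged -0.00301 ± 0.196 and -0.14 ± 0.293, and Cd7 0.277 ± 0.17 and 0.333 ± 0.359. Ribosomal protein genes were higher in trained samples in 53 of 71, with a median difference of 0.1, where the median of all genes was -0.000208. Without untrained sample 1 the median turned to -0.113, and without untrained sample 2 it was 0.282. Mitochondrially encoded genes had a median of 0.139, and -0.00285 without untrained sample 1.

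Whether the training difference in these cells differed from that in the gated T cells was tested as an interaction. Of 2916 genes 0 passed (0.0%, limma, Benjamini-Hochberg), and 159 had an unadjusted p under 0.05. The smallest p belonged to Rpl11 of the large ribosomal subunit, with an interaction of 0.621 ± 0.139 (limma adjusted p = 0.575). Rpl11 scored -0.029, 0.124, 0.296, 0.327 and 0.149 below both gates, 0.298, 0.517, -0.0286, 0.00551 and 0.0388 in CD4-only and 0.389, 0.957, 0.117, 0.358 and 0.287 in CD8-only cells. It was higher in trained than in untrained samples below both gates and lower in both gated classes. Fau, which encodes a ribosomal protein fused to a ubiquitin-like one, differed by 0.562, the phosphatase gene Ptpn18 by 0.5, Uqcrfs1 of respiratory complex III by 0.458 and Ccm2 by 0.549, none past the threshold.

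**Figure D5:**
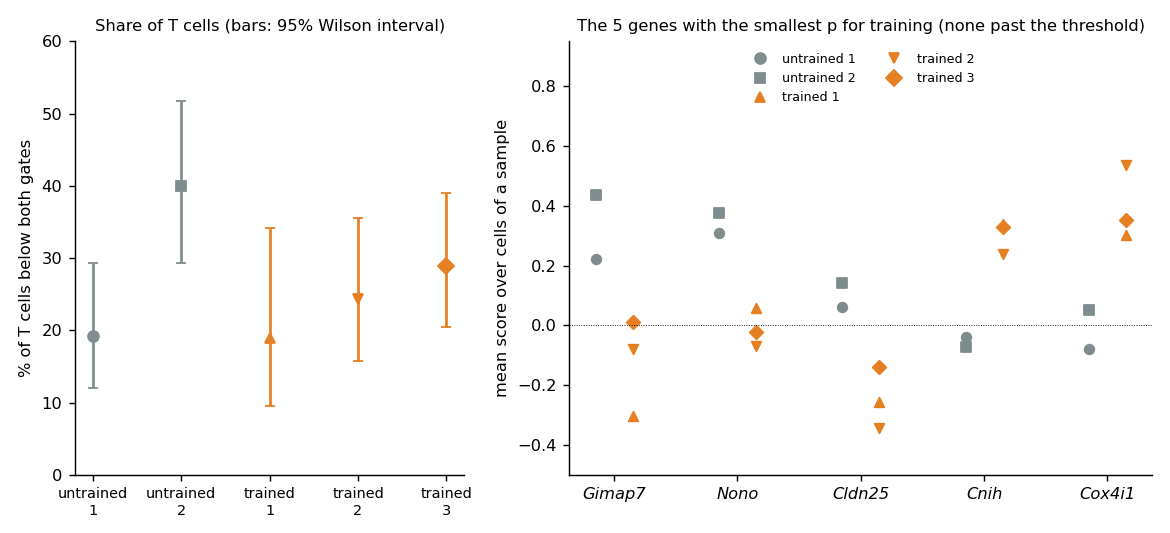
The left panel gives the share of T cells below both gates among the T cells of each sample, in percent, with 95% Wilson intervals, and the right panel the mean deposited score in these cells for the 5 genes with the smallest p for training; grey symbols are the 2 untrained and orange symbols the 3 trained samples. The untrained shares of 19.2% and 40% enclose 2 of the 3 trained shares, and none of the 5 genes, which were chosen by their p, passed the adjustment.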

How the data were processed

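Per the labels' protocols, CD3+ single cells from 5 samples were read by SORT-seq. Per the submitters' processing notes the reads went through Cell Ranger, with no version. No label names a normalisation, and the genome build is not given in the sources used here. The deposited matrix holds a score per gene and cell, named a count matrix, with 72.9% of mouse gene values below 0 and 0 whole numbers in the table. A further deposited table repeats part of it and was not used.

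Cells were gated at 0 and assigned to samples by the number in their names. Each gene's score was averaged per sample and class, and the 15 means were fitted with limma (3.58.1, R 4.3.3), two-sided, with sample as a block, over 2916 genes. The 10 gate genes and 41 spike-ins were left out. Training was fitted on the 5 means of the T cells below both gates. Genes with an adjusted p under 0.05 are counted as passing, and the fits were tested on simulated data. Shares were compared by exact permutation (scipy 1.17.1, Python 3.11.15), and components were computed with scikit-learn (1.9.0). The members, gene lists, markers and tests were chosen with earlier results of these data known.

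The rule for named genes took, per class comparison, at most 8 passing genes in each direction, ranked by difference and of 1 sign in 5 of 5 samples. Where fewer than 5 passed, it took the 5 with the lowest p. It added from every list the 3 genes of lowest p, and chosen lineage genes, and the remaining genes past the threshold against CD4-only cells were named after their values were seen. Other list genes were named as examples, also after their values were seen. Alternatives covered the scale, centring, gates, cells kept, median, weights, a filter, the block and each sample left out. Depth is unknown.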

Additional observations from a re-analysis of the deposited data

How the results depend on the processing

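Against CD4-only T cells, 23 genes passed with the settings of the report. The count was 57 (6 higher, 51 lower) with scores divided by their SD in each sample and 6 with each cell's mean subtracted. It was 15 with gates at 0.25 and 13 with a T cell marker score above 0.25. It was 0 without cells above 0 for macrophage and microglia markers, 7 without cells above 0 for Kcnq1ot1 and A630089N07Rik, and 0 (limma, 386 at an unadjusted p under 0.05) with medians over cells. Leaving out 1 sample gave 0 to 5. With no replicate block it was 20 (18 shared), with weights 28, with the filter on SD 17, and with both gate scores at or below -0.1 it was 24. Of 23 genes, 23 kept their direction in every alternative that tested them, which genes chosen by p from the same cells will tend to do.

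Against CD8-only cells 0 genes passed, and 0 with no replicate block. It was 1 without cells above 0 for macrophage and microglia markers and 5 with the limit of -0.1, chosen after the data were seen. Leaving out 1 sample gave 0 each time (limma, 229 to 365 at an unadjusted p under 0.05). For training 0 genes passed but for 15, all higher in trained samples and Cox4i1 and Nkg7 among them, with medians over cells; for the interaction 1 passed without untrained sample 1, Arpc4. For training 2188 of 2916 genes were higher in trained samples with medians over cells, against 1455 with the settings of the report. The causes were not tested. No paired analysis was possible for training because replicate numbers follow the order of the samples and pair nothing.

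The difference in share of -5.58 points was 0.687 points as a share of all cells, and between -16 and 4.8 points with 1 sample left out, the latter without untrained sample 2. Scores without counts give no depth, so undetected and absent transcripts cannot be told apart.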
